A study of Mus musculus with 7 samples.

Results

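The thrombospondins and tenascins examined here are 8 genes of the extracellular matrix, taken by symbol from the 53465 rows of the deposited table: the thrombospondins Thbs1, Thbs2, Thbs3, Thbs4 and Comp, and the tenascins Tnc, Tnxb and Tnn. The set was chosen by family membership after the PTR against P values of these libraries were known, and those contrast values therefore bear on the choice. Each symbol matched a single row, and all 8 genes passed the filter on low counts. The tumors grew from EMT6, a mammary carcinoma line of the mouse, after 500000 cells had been placed in the mammary fat pad of female Balb/c mice aged 6 to 8 weeks. The 3 EMT6-P libraries come from tumors grown under an isotype (IgG) control antibody, and the 3 EMT6-PTR libraries from tumors grown under αPD-L1 antibody. Both antibodies were given at 250 μg per mouse every 3 days until the institutional endpoint. A further library comes from a metastasis under the same αPD-L1 treatment, whose organ the labels do not name. The labels write PDR for the group called PTR in the paper, and they do not say which mouse each library came from. The paper's figure legend describes replicates as technical where it does not say otherwise, and it does not say otherwise for this sequencing. The libraries of a group may therefore not be separate tumors, and the spread between them may be technical as well as biological. Below, the word tumor stands for the sample behind a library. Total estimated counts per library were 20476480, 21936692 and 20624015 in EMT6-P replicates 1 to 3, 21433396, 20430110 and 25213472 in EMT6-PTR replicates 1 to 3, and 24592782 in the metastasis. The libraries were not alike in the summed levels of cell type markers. By these sums EMT6-PTR replicate 3 was low in carcinoma and high in fibroblast markers, though not in every marker of either list. EMT6-PTR replicate 1 was high in skeletal muscle markers and the metastasis held lung markers, with values given further on. The fold changes that EMT6-PTR replicate 3 moved most are also given without it.

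Thrombospondins are secreted calcium-binding glycoproteins that assemble into multimers and link cells to the matrix. Subgroup A (Thbs1 and Thbs2) forms trimers, carries the type 1 repeats that bind the receptor CD36, and is known for limiting blood vessel growth, and Thbs1 also engages CD47 and can activate latent TGF-beta. Subgroup B (Thbs3, Thbs4 and Comp) forms pentamers that lack those repeats and is known from cartilage, tendon, muscle and heart, where Comp binds fibrillar collagens. Tenascins are large matrix proteins that modulate adhesion: Tnc is raised in wounds and in tumor stroma, Tnn (tenascin-W) appears in developing bone and in tumor stroma, and Tnxb belongs to loose connective tissue and skin.

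Expression is given as CPM, counts relative to library size, after scaling the 7 libraries by their upper quartile, and levels of different genes are compared as CPM per kilobase of merged exons. In EMT6-P tumors the 8 genes spanned several orders of magnitude. Thbs1 led with 135 ± 42.9 CPM per kilobase (SD, n = 3), next to Tnc with 124 ± 32.3, and the tumors overlapped between these neighbours. Thbs2 followed at 54.5 ± 14.5 CPM per kilobase, Thbs3 at 8.01 ± 0.995, Tnn at 4.16 ± 2.06 and Thbs4 at 1.44 ± 0.654, each below all values of the gene before it. Comp and Tnxb closed the order at 0.107 ± 0.072 and 0.0712 ± 0.0525 CPM per kilobase and overlapped each other. In EMT6-PTR tumors the order of the means was the same for the first 4 genes, at 112 ± 49.0 CPM per kilobase (SD, n = 3) for Thbs1, 91.3 ± 75.6 for Tnc, 56.4 ± 6.35 for Thbs2 and 13.4 ± 9.15 for Thbs3. Comp came next by its mean, 2.80 ± 3.99 CPM per kilobase, but its tumors overlapped those of Tnn (2.30 ± 1.08), whose tumors overlapped those of Thbs4 (1.05 ± 0.892), and Tnxb was last at 0.163 ± 0.0489.

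EMT6-PTR was compared with EMT6-P to ask which of these matrix genes differ in tumors labelled resistant to αPD-L1. Because those values were known when the families were chosen, the fold changes of the 8 genes are given with their standard errors as a description, without a test of their own. In edgeR's quasi-likelihood fit across 15645 genes, 0% were called at an adjusted p under 0.05 in either direction, the smallest adjusted p (Benjamini-Hochberg) was 0.421, and 1786 genes (11.4%) had an unadjusted p under 0.05. DESeq2 called 281 genes (1.80%), 0.882% of all tested genes being higher in EMT6-PTR. By size alone, EMT6-PTR exceeded EMT6-P at least 2-fold for Comp and Tnxb, 2 of 8 genes where 6.27% of all tested genes did so, and none of the 8 was at least 2-fold lower, against 1.29% of all tested genes. The median log2 fold change of the 8 genes was -0.11, with 4 above 0 and 4 below, and that of all tested genes was 0.03.

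**Figure D1:**
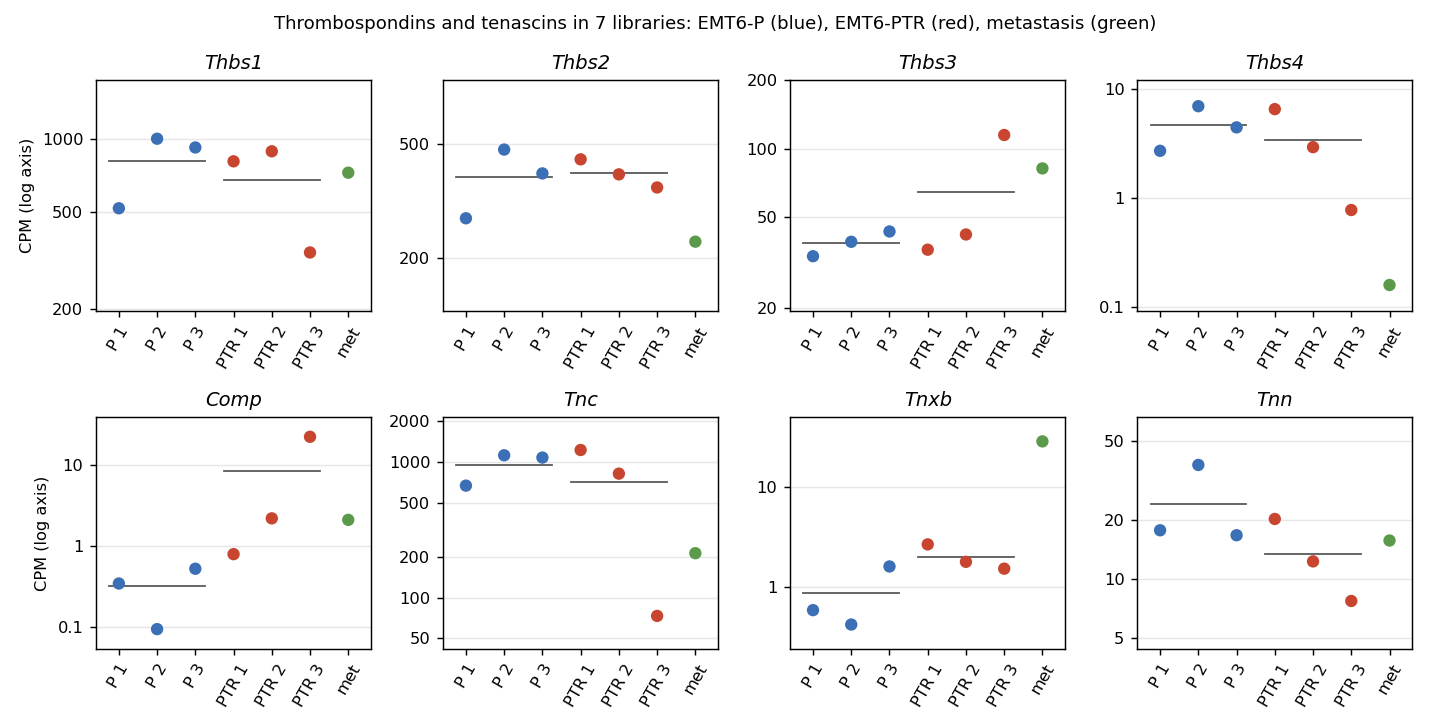
CPM (log axis, a separate scale in each panel) of the 8 genes in each of the 7 libraries, with EMT6-P in blue, EMT6-PTR in red and the metastasis (met) in green. Horizontal lines are the means of 3 libraries. EMT6-PTR replicate 3 (PTR 3) is the highest primary tumor for Comp (22.0 CPM) and Thbs3 (115 CPM) and the lowest for Tnc (73.3 CPM), Thbs1, Thbs4 and Tnn, and the metastasis is the highest library for Tnxb (28.5 CPM).

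Comp (ENSMUSG00000031849.9), the pentameric cartilage oligomeric matrix protein, lies on chromosome 8 of GRCm38 from 70373558 to 70382066 on the plus strand. It stood at 0.341, 0.0934 and 0.519 CPM in EMT6-P replicates 1 to 3 and at 0.785, 2.17 and 22.0 CPM in EMT6-PTR replicates 1 to 3. Every EMT6-PTR tumor was thus above every EMT6-P tumor, which held for 1 of the 8 genes and for 9.52% of all tested genes. The opposite arrangement held for 0 of the 8 and for 11.8% of all tested genes. The group means of Comp were 0.318 ± 0.214 and 8.31 ± 11.8 CPM (SD, n = 3 each). The log2 fold change was 4.69 (standard error 1.41). Much of its size came from EMT6-PTR replicate 3, which was 10.1-fold above the next tumor, and without that tumor the log2 fold change was 2.18. The EMT6-P side rested on 7, 2 and 11 estimated counts, with exact Poisson 95% intervals of 2.81 to 14.4, 0.242 to 7.22 and 5.49 to 19.7 counts that cover counting error only. Comp reached 10 counts in 1 EMT6-P and all 3 EMT6-PTR tumors, and therefore passed the filter mainly through the group in which it was higher.

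Thbs3 (ENSMUSG00000028047.11) and Thbs4 (ENSMUSG00000021702.7), the other pentameric members, parted in the same tumor. Thbs3, which lies on chromosome 3 from 89215180 to 89226837 on the plus strand, stood at 33.7, 39.0 and 43.3 CPM in EMT6-P and at 36.0, 42.0 and 115 CPM in EMT6-PTR. The first 2 EMT6-PTR tumors fell within the EMT6-P range and the third lay 2.66-fold above the highest other tumor, so that the log2 fold change of 0.74 (standard error 0.45) was 0.01 without EMT6-PTR replicate 3, and 1.02 when replicate 1 was dropped instead. The gene Mtx1 is annotated on the opposite strand across the whole of Thbs3, and the sources used here do not state whether the counting used strand. Mtx1 itself held 892, 963 and 844 estimated counts in EMT6-P and 814, 429 and 735 in EMT6-PTR. Thbs4, on chromosome 13 from 92751590 to 92794818 on the minus strand, stood at 2.73, 7.01 and 4.48 CPM in EMT6-P and at 6.59, 2.95 and 0.781 CPM in EMT6-PTR. Its groups overlapped, with EMT6-PTR replicate 3 lowest, and its log2 fold change was -0.46 (standard error 0.74) with that tumor and 0.01 without it. When EMT6-PTR replicate 1 was dropped instead, the value for Thbs4 was -1.36.

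Promoter sequences from RefSeq (GRCm38.p6) matched 6 of the 8 genes, and those of Thbs3, Thbs4 and Tnc are shown because, of the 6, these stood farthest from the other tumors in EMT6-PTR replicate 3. Each line gives the 170 bases before the transcript start, 5′ to 3′ on the gene's strand, with capitals marking matches, on either strand, to the GC box GGGCGG, the TATA box TATAAA and the CCAAT box CCAAT. The windows are chr3:89215010-89215179 (plus strand), chr13:92794819-92794988 (minus strand) and chr4:64047016-64047185 (minus strand).
Thbs3: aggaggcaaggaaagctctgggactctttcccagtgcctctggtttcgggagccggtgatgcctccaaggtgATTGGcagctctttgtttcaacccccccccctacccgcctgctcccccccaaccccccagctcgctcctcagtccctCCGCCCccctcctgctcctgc
Thbs4: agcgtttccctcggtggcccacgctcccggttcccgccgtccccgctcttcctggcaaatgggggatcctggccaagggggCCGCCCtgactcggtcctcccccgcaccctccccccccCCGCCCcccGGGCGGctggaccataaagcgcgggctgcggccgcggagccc
Tnc: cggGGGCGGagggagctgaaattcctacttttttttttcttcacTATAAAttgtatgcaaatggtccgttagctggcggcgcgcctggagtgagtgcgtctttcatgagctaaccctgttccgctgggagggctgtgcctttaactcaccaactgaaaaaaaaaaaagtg
All 3 windows hold a GC box, 3 of them in Thbs4, while a TATA box appears in that of Tnc, beginning 126 bases before the start used here, and a CCAAT box in that of Thbs3. Over the 250 bases before the start of 32851 RefSeq promoters, the GC box matched in 32.7%, the TATA box in 12.4% and the CCAAT box in 33.8%. RefSeq lists a second Tnc start, at 64046936, from which the same TATA and GC boxes begin 205 and 246 bases upstream, and the 170 bases before it hold none of the 3 motifs. Such letter matches are a description of the sequence and say nothing of binding in these tumors.

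Thbs1 and Thbs2 are the trimeric thrombospondins and were the most abundant ones in both groups. Thbs1 (ENSMUSG00000040152.8), on chromosome 2 from 118111876 to 118127133 on the plus strand, stood at 520.2, 1006 and 926 CPM in EMT6-P and at 812, 893 and 342 CPM in EMT6-PTR. The groups overlapped, the lowest value being that of EMT6-PTR replicate 3, and the log2 fold change was -0.26 (standard error 0.42) with it and 0.06 without it. Thbs2 (ENSMUSG00000023885.8), on chromosome 17 from 14665500 to 14694235 on the minus strand, stood at 275, 477 and 394 CPM in EMT6-P and at 441, 391 and 352 CPM in EMT6-PTR. It was the steadiest of the 8 genes across the 6 primary tumors, with a range of 0.79 on the log2 CPM scale against a median of 0.94 over all tested genes, and its log2 fold change was 0.05 (standard error 0.23). Per kilobase, Thbs1 exceeded Thbs2 by 2.12-fold to 2.71-fold in 5 of the primary tumors and by 1.12-fold in EMT6-PTR replicate 3.

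Tnc (ENSMUSG00000028364.15), tenascin-C, lies on chromosome 4 from 63959785 to 64047015 on the minus strand. It stood at 672, 1126 and 1083 CPM in EMT6-P and at 1232, 824 and 73.3 CPM in EMT6-PTR. EMT6-PTR replicates 1 and 2 lay above the lowest EMT6-P tumor, whereas replicate 3 was 9.17-fold below the lowest other tumor. The log2 fold change was -0.44 (standard error 0.85), and it was 0.10 without EMT6-PTR replicate 3. Under limma-voom, a fit on log values, it was -1.13.

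Tnxb (ENSMUSG00000033327.16), tenascin-X, lies on chromosome 17 from 34670535 to 34719815 on the plus strand. In the primary tumors it was scarce, at 0.585, 0.420 and 1.60 CPM in EMT6-P and 2.66, 1.78 and 1.52 CPM in EMT6-PTR. The group means were 0.870 ± 0.641 and 1.99 ± 0.596 CPM (SD, n = 3 each), and the groups overlapped through EMT6-P replicate 3 and EMT6-PTR replicate 3. The log2 fold change was 1.19 (standard error 0.57) and was 1.97 when EMT6-P replicate 3 was dropped. Dropping EMT6-P replicate 1 (0.97), EMT6-P replicate 2 (0.86) or EMT6-PTR replicate 1 (0.92) took it under 2-fold. Tnn (ENSMUSG00000026725.17), on chromosome 1 from 160085029 to 160153580 on the minus strand, stood at 17.7, 38.0 and 16.7 CPM in EMT6-P and at 20.2, 12.3 and 7.74 CPM in EMT6-PTR. Its groups overlapped, and its log2 fold change was -0.85 (standard error 0.46), from -1.27 without EMT6-PTR replicate 1 to -0.36 without EMT6-P replicate 2. Tnr, the brain tenascin and the remaining tenascin of the mouse, held at most 1 estimated count in any library (exact Poisson 95% upper limits of 3.69 for 0 counts and 5.57 for 1), and no difference was detectable at this depth.

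**Figure D2:**
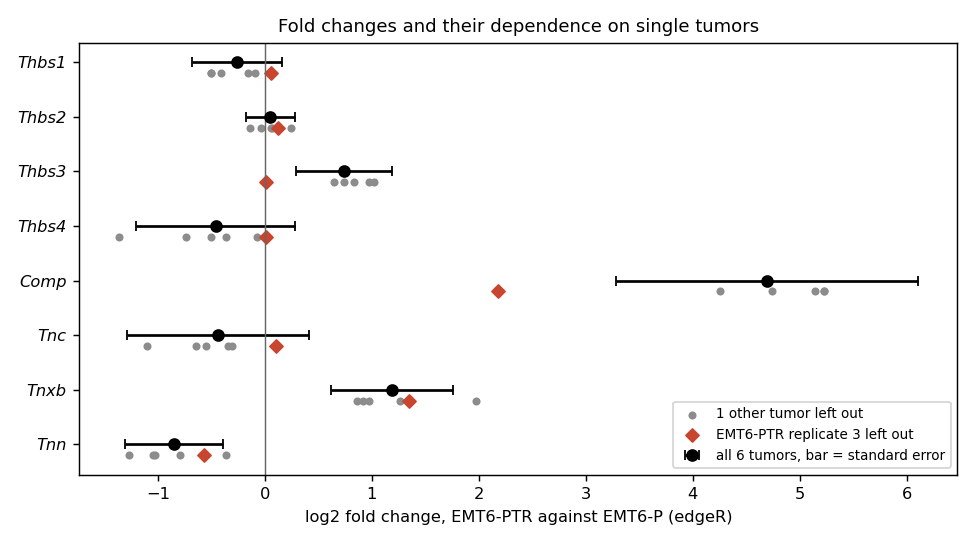
Log2 fold change of EMT6-PTR against EMT6-P for each gene (x axis) from all 6 primary tumors (black, bars are standard errors) and with 1 tumor left out (grey), with the fit lacking EMT6-PTR replicate 3 as a red diamond. Without that tumor Comp stands at 2.18 in place of 4.69, and Thbs1, Thbs3, Thbs4 and Tnc lie between 0.01 and 0.10.

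The spread among EMT6-PTR tumors was wide for several of the 8 genes. Over the 6 primary tumors, log2 CPM ranged by 6.90 for Comp, 4.07 for Tnc and 3.03 for Thbs4, more than for 99.3%, 97.2% and 93.7% of all tested genes. The SD of log2 CPM within EMT6-PTR was 2.39 for Comp, 2.20 for Tnc and 1.48 for Thbs4, and within EMT6-P it was 0.89, 0.41 and 0.67. Thbs1 (0.76 in EMT6-PTR, 0.52 in EMT6-P), Thbs3 (0.91, 0.18) and Tnn (0.69, 0.66) also had the larger SD in EMT6-PTR. Thbs2 (0.16, 0.40) and Tnxb (0.40, 0.90) had the smaller SD there. Over all tested genes the median SD was 0.39 in EMT6-PTR and 0.15 in EMT6-P. Among the 6 tumors, EMT6-PTR replicate 3 had the highest value of 2 of the 8 genes (32.7% of all tested genes) and the lowest of 4 (34.5%). It was thus at an extreme for 6 of 8, a share near the 67.2% of all tested genes, whereas EMT6-PTR replicate 1 was at an extreme for 2 of 8 (30.2%) and EMT6-PTR replicate 2 for 0 of 8 (34.7%).

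The make-up of the families in EMT6-PTR replicate 3 differed from that in the other primary tumors. Of the summed level of the 8 genes per kilobase, Tnc made up 38.0% ± 1.21 (SD, n = 3) in EMT6-P, 43.0% and 33.0% in EMT6-PTR replicates 1 and 2 and 6.33% in replicate 3. Thbs3 made up 2.55% ± 0.551 in EMT6-P and 16% in EMT6-PTR replicate 3, and Comp 0.0360% ± 0.0243 in EMT6-P and 4.97% in that tumor. The summed level itself was 222, 395 and 362 CPM per kilobase in EMT6-P, 369 and 321 in EMT6-PTR replicates 1 and 2, and 149 in replicate 3. The 3 tenascins together stood at 89.6 to 151 CPM per kilobase in EMT6-P, at 162 and 108 in EMT6-PTR replicates 1 and 2, and at 10.9 in replicate 3.

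**Figure D3:**
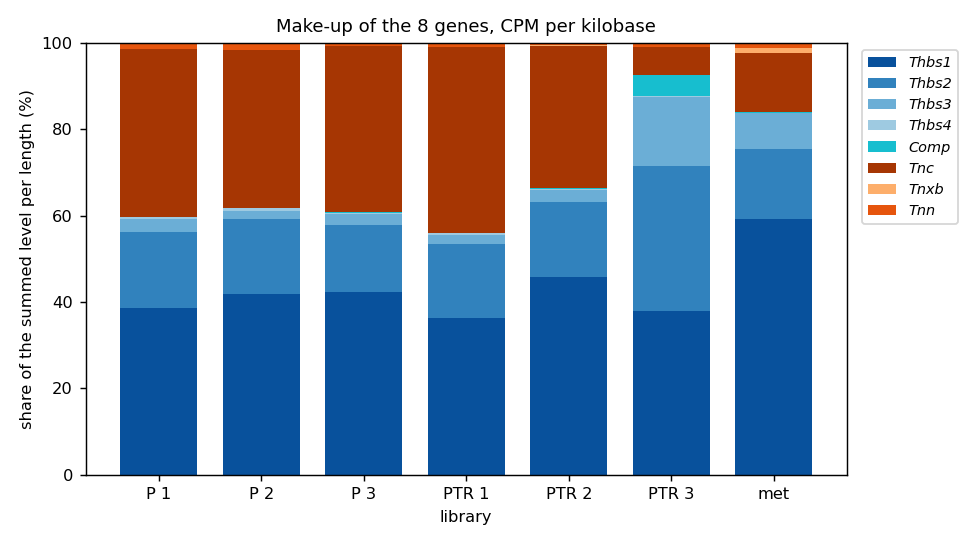
Share of each gene in the summed level of the 8 genes (y axis, percent of CPM per kilobase of merged exons) in each library. Tnc (dark brown) takes 33.0% to 43.0% in the first 5 tumors, 6.33% in EMT6-PTR replicate 3 and 13.5% in the metastasis (met).

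EMT6-PTR replicate 3 also stood apart in genes that mark cell types. The summed level of 7 carcinoma and epithelial markers was 615 CPM there against 2386 to 2732 CPM in the other primary tumors, and Krt8, the most abundant of them, stood at 505 against 1685 to 1898 CPM. The 9 fibroblast markers summed to 27186 CPM against 6190.2 to 10444 CPM. Col3a1 (9088 CPM against 734 to 1998), Postn (5715 against 438 to 998) and Dcn (3345 against 32.2 to 104) were far above the other primary tumors there, Col1a2, the most abundant over all libraries, stood at 4835 against 2318 to 3219 CPM, and Col1a1, at 2755 CPM, lay within their range of 2427 to 3708 CPM. The 11 tendon and cartilage markers summed to 1097 CPM, led by Col11a1, against 103 to 321 CPM, while the defining genes Tnmd, Mkx and Acan were at or near 0 in every primary tumor (at most 0.28 CPM) and Scx was lowest there, at 11.4 CPM against 26.1 to 51.5. The 6 smooth muscle and pericyte markers summed to 67.0 CPM, led by Acta2, against 684 to 1165 CPM. The part of these shifts in the values of Comp, Thbs3 and Tnc was not tested, and in whole tumor tissue fewer cells of a type and less RNA per cell cannot be told apart. EMT6-PTR replicate 1 differed in another way, with 5182 CPM over 10 skeletal muscle markers, led by Acta1, against 6.76 to 723 CPM in the other primary tumors. Thbs4, a gene also made in muscle, stood in that tumor at 6.59 CPM, within the EMT6-P range of 2.73 to 7.01 CPM. That was its highest value in EMT6-PTR, where replicates 2 and 3 stood at 2.95 and 0.781 CPM. The part of muscle RNA in it was not tested. Platelets are a known store of Thbs1: the 5 platelet markers summed to 35.3 to 58.7 CPM in EMT6-P and to 22.3, 20.2 and 44.1 CPM in EMT6-PTR, and the 4 tested markers divided evenly, 2 being higher and 2 lower by their log2 fold change. Their most abundant gene Pf4 stood at 38.1, 47.3 and 20.6 CPM in EMT6-P and at 13.1, 9.91 and 5.16 CPM in EMT6-PTR, without overlap, as did 11.8% of all tested genes in that direction, and its adjusted p was 0.421 in edgeR's quasi-likelihood test. Gp1bb stood the other way in EMT6-PTR replicate 3, at 31.3 CPM against 6.73 to 11.4 CPM in EMT6-P. In the primary tumors the 5 macrophage markers summed to 799 to 1088 CPM, the 6 adipocyte markers to 10.2 to 31.0 CPM, the 5 Schwann cell markers to 10.1 to 22.9 CPM and the 5 epidermis markers to 0.156 to 14.5 CPM.

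**Figure D4:**
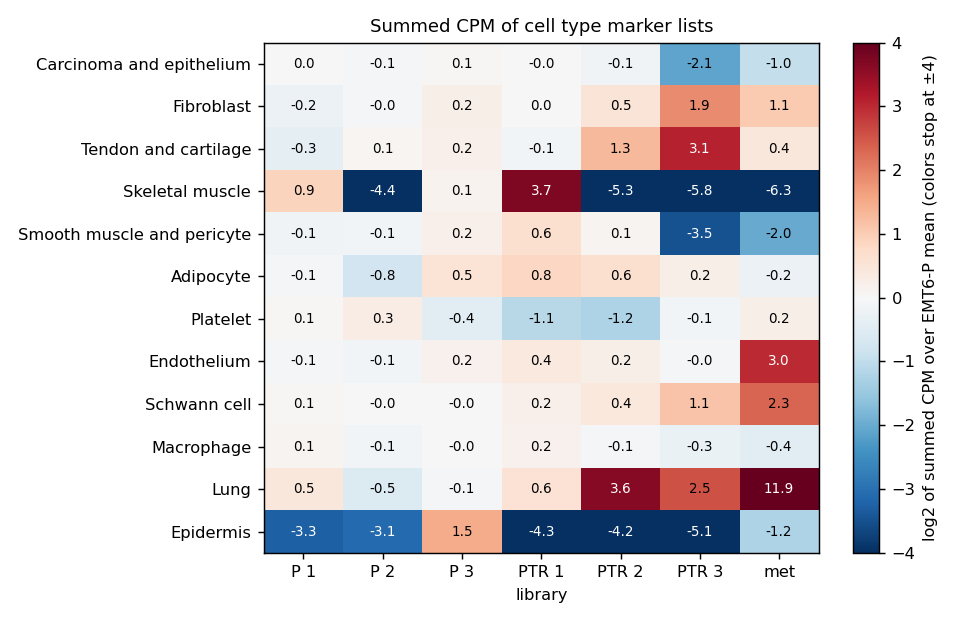
Log2 ratio of the summed CPM of each cell type marker list (rows) to its mean in EMT6-P, by library (columns), with values printed in the cells and colors limited to 4 in either direction. EMT6-PTR replicate 3 is low for carcinoma and smooth muscle markers and high for fibroblast and tendon and cartilage markers, EMT6-PTR replicate 1 is high for skeletal muscle markers, and the metastasis (met) is high for lung and endothelial markers.

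In the metastasis, Tnxb and Thbs4 lay farthest from the EMT6-PTR tumors, in opposite directions. Tnxb stood at 28.5 CPM, 10.7-fold above the highest primary tumor, and its log2 CPM was 3.82 above the mean of the 3 EMT6-PTR tumors, whose SD was 0.40. Thbs4 stood at 0.160 CPM (4 estimated counts, exact Poisson 95% interval 1.09 to 10.2), which is 4.89-fold below the lowest primary tumor, with a log2 difference from the EMT6-PTR mean of -3.38 (SD of those tumors 1.48). Tnxb was the 1 gene of 8 at least 2-fold above the EMT6-PTR mean, as were 12.4% of all tested genes, and Thbs4 the 1 gene at least 2-fold below it, as were 8.58%. These counts depended on single tumors: without EMT6-PTR replicate 3 the log2 difference was 1.07 for Thbs3 and -2.24 for Tnc, and for Comp it was -1.70 when EMT6-PTR replicate 1 was dropped or -1.02 when replicate 2 was. The difference changed sign without EMT6-PTR replicate 3 for Comp (-0.70 to 0.62), Thbs1 (0.21 to -0.22) and Tnn (0.33 to -0.01). Thbs2, at 228 CPM, also lay below all 6 primary tumors, which for 2 of the 8 genes and for 24.1% of all tested genes was the case, and Tnxb was the 1 gene above all 6, against 20.9%. The remaining genes lay within the range of the EMT6-PTR tumors, with Thbs1 at 729 CPM, Thbs3 at 82.0 CPM, Comp at 2.08 CPM, Tnc at 213 CPM and Tnn at 15.7 CPM. With a single metastasis these differences have no replicate check.

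The metastasis library carried RNA of lung. All 5 lung markers were present, summing to 8078 CPM against 1.45 to 26.1 CPM in the primary tumors, with the club cell gene Scgb1a1 at 3007 CPM and the surfactant gene Sftpc at 2348 CPM. In the primary tumors most of the lung sum came from Ager, and Sftpc was at or below 0.189 CPM. The 5 endothelial markers summed to 849 CPM in the metastasis, led by Pecam1, against 100.4 to 142 CPM in the primary tumors. The 5 Schwann cell markers summed to 51.8 CPM, of which Mbp made 42.8, against 10.1 to 22.9 CPM in the primary tumors. Fibroblast markers summed to 15137 CPM, above 5 of the primary tumors and below EMT6-PTR replicate 3, and smooth muscle and pericyte markers to 183 CPM, below the same 5 tumors and above that tumor. The part of RNA from any of these cell types in the level of Tnxb was not tested. The 7 carcinoma and epithelial markers summed to 1354 CPM and did not move together: Krt8 stood at 743 CPM, below 5 of the primary tumors, whereas Krt19 (172 CPM), Cdh1 (138 CPM) and Epcam (52.2 CPM) were above all 6, where they reached at most 11, 9.69 and 10.6 CPM.

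The genes whose pattern over the 7 libraries lay closest to those of the 3 members with the largest log2 fold changes were found by the root mean square difference of centred log2 CPM. For Comp these were Fmod, Itih2 and Thsd7a, at differences of 0.40, 0.65 and 0.72, where Comp itself varied by 2.06 around its mean. Fmod encodes fibromodulin, a collagen-binding proteoglycan that is also among the 11 tendon and cartilage markers, and stood at 3.90, 3.41 and 10.5 CPM in EMT6-P, at 13.2, 20.4 and 256 CPM in EMT6-PTR and at 24.0 CPM in the metastasis. For Tnxb they were Ccdc85a, Scn7a and Sort1 at 0.37, 0.41 and 0.44, all highest in the metastasis, where Scn7a, a sodium channel gene, stood at 15.7 CPM against 0.390 to 1.35 CPM in the primary tumors. For Tnn they were A930024E05Rik, Plch2 and Zfp57 at 0.23, 0.24 and 0.29.

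The counts in the pathway lists stand beside shares over all tested genes of 6.27% at least 2-fold higher, 1.29% at least 2-fold lower and 11.4% at an unadjusted p under 0.05, and a median log2 fold change of 0.03. Among 18 tested receptor genes of thrombospondins, edgeR's quasi-likelihood test called 0 (2 at an unadjusted p under 0.05), 1 was at least 2-fold higher and none 2-fold lower, and their median log2 fold change was -0.08. The smallest p-values were those of the receptor phosphatase Ptprj (log2 fold change 0.38, standard error 0.14), the endocytic receptor Lrp1 (0.61, 0.24) and the integrin chain Itgb5 (-0.37, 0.16). Without EMT6-PTR replicate 3 Lrp1 was 0.38. Cd47 and Cd36, the best known receptors of Thbs1, were looked up after their values had been seen. Cd47 stood at 143, 148 and 163 CPM in EMT6-P, at 126, 175 and 221 CPM in EMT6-PTR and at 234 CPM in the metastasis. Cd36 stood at 11.1, 8.04 and 6.70 CPM in EMT6-P, at 20.2, 12.7 and 6.99 CPM in EMT6-PTR and at 169 CPM in the metastasis. Of 17 tested tenascin receptor genes, edgeR called 0 (1 at an unadjusted p under 0.05) and none differed at least 2-fold, with a median of 0.08. Their smallest p-values were those of the integrin chain Itga7 (0.89, standard error 0.36), Tlr4, which tenascin-C can activate (0.41, 0.17), and the annexin Anxa2 (-0.47, 0.21). Itga7 was 0.46 without EMT6-PTR replicate 1, the tumor high in skeletal muscle markers, and Anxa2 was -0.30 without EMT6-PTR replicate 3.

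Among matrix partners, proteases, upstream regulators and TGF-beta responsive genes edgeR again called 0, with 3, 3, 5 and 1 at an unadjusted p under 0.05. Of 14 tested matrix partners 6 were at least 2-fold higher and none 2-fold lower, with a median log2 fold change of 0.72, and the smallest p-values were those of the matrilin Matn4 (1.63, standard error 0.52), decorin, Dcn (4.67, 1.69), and the collagen chain Col3a1 (2.15, 0.81). Without EMT6-PTR replicate 3 these were 0.87, 0.62 and 0.70. Of 13 tested proteases that cut matrix proteins 3 were at least 2-fold higher and none 2-fold lower, with a median of 0.09. By p-value the first of them were Adamts5 (2.31, standard error 0.72), Adamts1 (1.35, 0.42), which cleaves Thbs1, and Adamts12 (0.73, 0.26), which cleaves Comp and was under 2-fold. Without EMT6-PTR replicate 3 these were 1.24, 0.75 and 0.46. Of 28 tested upstream regulators none differed 2-fold and the median was 0.01. Their smallest p-values were those of Tgfb3 (0.51, standard error 0.19), the tendon transcription factor gene Scx (-0.92, 0.36) and the NF-kappaB subunit gene Rela (-0.40, 0.15), and without EMT6-PTR replicate 3 Scx was -0.61. Of 15 tested TGF-beta responsive genes 2 were at least 2-fold higher and none 2-fold lower, with a median of -0.05. Ccn2 stood at 2.18 (standard error 0.75), Pmepa1 at -0.40 (0.20) and Postn at 1.69 (0.88), and without EMT6-PTR replicate 3 Ccn2 was 0.84 and Postn 0.04. The adjusted p-values of the 3 genes per pathway list named for their smallest p-values lay between 0.421 and 0.485.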

How the data were processed

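Polyadenylated RNA of 7 tissue samples was sequenced, 3 from each primary tumor group and 1 from the metastasis. The authors prepared stranded libraries, checked reads with FastQC 0.11.5, aligned them with STAR 2.6.0a to GRCm38 and estimated counts per gene with RSEM 1.3.1; the deposited values are these estimated counts, unfiltered and unscaled, and 13.5% to 15.6% of them per library are fractional. The authors used GENCODE M16. Positions and exon lengths were here taken from GENCODE M21, on GRCm38 too. Symbols came from a separate list of gene names, which gave 53274 of 53465 identifiers a symbol.

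Counts were rounded to whole numbers, filtered with filterByExpr, scaled by upper-quartile factors and tested over the 6 primary tumors with edgeR 4.0.16 (glmQLFit, glmQLFTest; R 4.3.3) at a Benjamini-Hochberg threshold of 0.05. A standard error is the log2 fold change divided by the square root of F. Log2 CPM used a prior count of 2. Alternatives were TMM and RLE factors, DESeq2 1.42.0, limma-voom (limma 3.58.1), other filters, the metastasis in the fit, a replicate block and leaving out each tumor, and for levels per length the longest transcript. The fits were tested on counts simulated from the mean counts and library sizes of this comparison. Both groups shared 1 dispersion, no tumor was made to stand apart, and the changed genes were drawn from those with higher mean counts. Recovery of scarce genes such as Tnxb was thus not measured. At a dispersion of 0.1, edgeR recovered 96% of 200 genes changed by 2 on the log2 scale, with 10 false calls among 15879 genes. At 0.4 it recovered 6.5% with 1 false call among 15804. DESeq2 recovered 96.5% with 22 false calls and 33% with 25. Estimated within each group, common dispersion came to 0.0266 (EMT6-P) and 0.246 (EMT6-PTR), so that neither simulated setting matches these libraries.

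The members, the gene lists and the tests were chosen with earlier results of these data known. Comp, Tnxb and Tnc also appear in preliminary lists of secretory genes that the study drew from these libraries, so their values are no independent evidence. The study lists Comp and Tnxb as raised in EMT6-PTR and Tnc as lowered. Named beside the members were Tnr, the 3 genes of each pathway list with the smallest p, the leading or most abundant genes of marker lists, and the 3 nearest patterns of the 3 members with the largest changes. Marker genes beyond these were chosen after their values were seen.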

Additional observations from a re-analysis of the deposited data

How the results depend on the processing

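The count of called genes was 0 in edgeR under each other scaling, filter, block and left-out tumor and with limma-voom, and 281 with DESeq2, where Adamts5 (log2 fold change 2.33) passed the threshold with an adjusted p of 0.0287. Comp (4.73) was also among these 281 genes, which is no independent evidence, since it was chosen with this contrast known. The count of members at least 2-fold higher was 0 where 10 counts were required in every primary tumor, because Comp and Tnxb were then not tested, and it ranged from 1 to 2 with each tumor left out, the 2 being Comp and Thbs3 in place of Tnxb without EMT6-PTR replicate 1. The count at least 2-fold lower was 1 (Tnc) with limma-voom and 1 (Tnc) with the replicate block, and ranged from 0 to 3 with each tumor left out, the 3 being Thbs4, Tnc and Tnn without EMT6-PTR replicate 1. Leaving out each tumor in turn gave log2 fold changes from -0.50 to 0.06 for Thbs1, from -0.14 to 0.24 for Thbs2, from -1.36 to 0.01 for Thbs4 and from -1.10 to 0.10 for Tnc, and that of Comp from 2.18 to 5.23; the sign turned for Thbs1, Thbs4 and Tnc without EMT6-PTR replicate 3, and for Thbs2 without EMT6-P replicate 1 (-0.14) or EMT6-PTR replicate 1 (-0.04).

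The labels state nothing that same-numbered tumors of the 2 groups share beyond the number. Their deviations from the group means correlated at 0.26, 0.25 and 0.04 across genes. Values for differently numbered tumors are not given here, so these cannot decide whether the numbers reflect a pairing. In the fit with the replicate block 0 genes were called, the log2 fold change was 3.80 for Comp and -1.0 for Tnc, and members at least 2-fold higher numbered 2. With the longest transcript as the length, the mean share of Thbs2 in EMT6-P was 18.3% in place of 16.8%. The metastasis differences kept their sign under TMM and RLE factors and the smaller prior count, which took Thbs4 from -3.38 to -3.78, and without EMT6-PTR replicate 3 those of Thbs1, Comp and Tnn changed sign (-0.22, 0.62 and -0.01).

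Low counts limit Comp in EMT6-P (2 to 11), Tnxb in EMT6-P replicates 1 and 2 (12 and 9) and Thbs4 in the metastasis (4). In EMT6-PTR replicate 2, CT010467.1 alone took 13.8% of counts. No explanation for the values of EMT6-PTR replicate 3 was tested.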

Other observations

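The transcript 8030451A03Rik is annotated on the strand opposite to Tnc and overlaps its exons. It held 56, 76 and 80 estimated counts in EMT6-P replicates 1 to 3, 125, 68 and 8 in EMT6-PTR replicates 1 to 3 and 12 in the metastasis, so that it was lowest in the same library as Tnc. Gm29233, annotated opposite to the 3′ part of Thbs1, held 55, 96 and 64 counts in EMT6-P and 93, 93 and 31 in EMT6-PTR. Its lowest primary tumor was thus also shared with Thbs1. In the metastasis Gm29233 held 143 counts, its highest library, whereas Thbs1 at 729 CPM lay within the range of the primary tumors. Reads of these pairs cannot be told apart if strand was not used in counting, which the sources used here do not state.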
